A study of Mus musculus with 12 samples.

Results

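The genes described here are 10 genes of retinoic acid signalling, namely the receptors Rara, Rarb and Rarg, the binding proteins Crabp1 and Crabp2, the metabolic enzymes Rdh10, Dhrs3 and Cyp26a1, and the known target genes Stra8 and Rec8. They were taken by name from the 18193 mouse genes that had a probe set of their own on the array, and each was read from a probe set chosen by its signal, the one of that gene with the highest mean log2 value over the 12 arrays. The cells were mouse embryonic stem (ES) cells of the genotype 129P2/OlaHsd (E14, Ainv15), in which a doxycycline-controlled transgene drives Neurog1, a basic helix-loop-helix factor that starts neuronal differentiation. Uninduced cells in maintenance culture (0 h, no doxycycline) were compared with cells given 1 ug/ml doxycycline for 24, 48 or 72 h, with 3 biological replicates numbered 1 to 3 in each of the 4 groups. All groups shared one medium, with serum, human recombinant LIF, puromycin and G418. The uninduced samples analysed here are all labelled 0 h, so the effects of the transgene, of doxycycline and of hours in culture cannot be told apart. The sources used here do not say whether the line is a single clone. The genes were selected on known results of these arrays, and the selection sets the arrays numbered 3 beside those numbered 1 and 2, so that gap between replicates is given as a description and was not tested.

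Retinoic acid is made from vitamin A in 2 oxidation steps, the first of which is carried out by retinol dehydrogenases such as Rdh10 and reversed by Dhrs3. Inside the cell it is carried by the small binding proteins Crabp1 and Crabp2, is broken down by Cyp26 enzymes, and acts through retinoic acid receptors, which sit with RXR partners on repeated AGGTCA-like hexamers in DNA. Rarb, Cyp26a1, Dhrs3, Stra8 and several Hox genes are textbook targets that retinoic acid switches on in ES cells, and the pathway is widely used to drive such cells towards neural fates.

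Each array gave one signal per probe set on a linear scale, with a trimmed mean of 150 on every array as deposited, and array medians lay between 19.5 and 32.8. Neurog1 itself checked the labels. Its brighter probe set read 11.4, 18.7 and 4.53 in uninduced replicates 1, 2 and 3, 756 to 974 at 24 h, 889 to 1152 at 48 h and 465 to 783 at 72 h. The summed signal of 8 ES cell markers was 41462 to 47789 in uninduced cells, 20949 to 24665 at 24 h, 5692 to 8702 at 48 h and 4994 to 5459 at 72 h. That of 8 neuronal markers was 3922 to 4361, 1727 to 4305, 9763 to 14263 and 24108 to 26897 in the same order. This sum was above the uninduced level at 48 and 72 h and not at 24 h. Stmn2 made up most of it in uninduced replicates 1, 2 and 3, at 3222, 3649 and 3264, and read 1654, 1274 and 686 at 24 h. Nefl was lower at 24 h too, and Elavl3 and Nefm overlapped. Tubb3, Map2, Elavl4 and Dcx had every 24 h array above every uninduced one. Replicate 1 at 24 h stood apart, with correlations of 0.812 and 0.787 to the other two arrays of its group, while every other pair within a group reached 0.961 or more. In bulk RNA, fewer cells of a type and less RNA per cell cannot be told apart. Differences below are on the log2(signal + 16) scale with their standard error from limma, over 3 arrays against 3 unless arrays are left out, and the threshold for a call was an adjusted p under 0.05 (Benjamini-Hochberg over 11806 genes).

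In the fit without the replicate number as a block, the retinoic acid binding proteins Crabp1 and Crabp2 rose from 24 h on. The receptor Rarb and the meiotic cohesin gene Rec8 were called higher by 48 h, and the retinol dehydrogenase Rdh10 by 72 h. The receptors Rara and Rarg fell by 48 h. With the block, Rarb, Rec8 and Stra8 were called higher at 24 h (limma adjusted p of 0.00755, 0.0160 and 0.00417). The time of first call of Rarb and Rec8 thus depends on the pairing, and no order of onset is read from it. Of the 8 genes that passed the filter on dim genes, 2 were called at 24 h without the block, both higher. In that fit 11.3% of all genes tested were called, 8.12% higher and 3.18% lower. With the block 5 of the 8 were called at 24 h, all higher. The counts of calls at 48 and 72 h below are from the fit without it. At 24 h 5 of the 8 had all induced arrays above all uninduced ones and 0 had all below, against 17.4% and 9.41% of all genes. At 48 h 6 were called, 4 higher and 2 lower, against 36.6% of all genes, of which 22.6% were higher and 14.0% lower. At 72 h 7 were called, 5 higher and 2 lower, against 43.9% of all genes, with 25.3% higher and 18.6% lower. Without overlap, 5 of the 8 lay above and 2 below at both later times, against 35.4% and 26.9% of all genes at 48 h and 35.6% and 29.6% at 72 h. Cyp26a1 and Dhrs3 did not pass the filter and are not in these counts, and their differences are given below from a fit without the filter. The median difference over the 8 genes was 1.58, 1.63 and 1.10 at 24, 48 and 72 h, beside 0.10, 0.12 and 0.09 over all genes tested. With quantile normalization in place of the deposited scaling the median over all genes was 0.07, -0.03 and -0.08. Rarb and Rec8 passed the filter through the induced groups only, so the counts of rising genes, the counts without overlap and these medians are a description. The calls of Rarb and Rec8 given here and below, with or without the block, carry the same limit.

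The promoters of 3 of these genes are shown because their signals stood highest on the arrays numbered 3 relative to the other arrays. The windows, from RefSeq on GRCm38.p6, run from 250 bases before to 50 bases after an annotated start, 5′ to 3′ on the gene's strand, and 8 of the 10 genes had 14 of them. The motif searched, called DR5, is a pair of receptor core hexamers in one orientation with 5 bases between them, on either strand. Each hexamer may read AGGTCA or, in its common variants, AGTTCA, or else GGTTCA, or lastly GGGTCA. Capitals mark a DR5 in Rarb and Cyp26a1, and in Stra8, which holds no DR5, the single hexamers.
Rarb, chr14:16575427-16575726, minus strand: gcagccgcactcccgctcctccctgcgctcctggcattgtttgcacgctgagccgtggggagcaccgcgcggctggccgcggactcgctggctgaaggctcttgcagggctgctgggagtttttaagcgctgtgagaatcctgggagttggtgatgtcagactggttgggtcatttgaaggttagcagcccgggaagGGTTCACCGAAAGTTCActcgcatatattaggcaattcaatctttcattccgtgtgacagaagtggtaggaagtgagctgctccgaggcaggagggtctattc
Cyp26a1, chr19:37697558-37697857, plus strand: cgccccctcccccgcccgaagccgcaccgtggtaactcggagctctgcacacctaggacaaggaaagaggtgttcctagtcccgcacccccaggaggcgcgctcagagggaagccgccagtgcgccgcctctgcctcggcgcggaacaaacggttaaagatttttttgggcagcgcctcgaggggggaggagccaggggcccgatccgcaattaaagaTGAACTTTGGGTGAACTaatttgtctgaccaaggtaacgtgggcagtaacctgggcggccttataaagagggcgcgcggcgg
Stra8, chr6:34920698-34920997, plus strand: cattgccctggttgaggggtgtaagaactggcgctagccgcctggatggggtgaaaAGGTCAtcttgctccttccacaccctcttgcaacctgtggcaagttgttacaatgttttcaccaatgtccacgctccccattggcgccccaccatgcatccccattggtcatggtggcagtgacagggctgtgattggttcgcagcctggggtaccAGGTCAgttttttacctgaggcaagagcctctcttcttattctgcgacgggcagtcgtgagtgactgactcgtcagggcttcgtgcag

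A DR5 was found in 32 of 32851 windows of all genes (0.0974%). Crabp2 and Rdh10 had no window and were not searched. Among the 8 genes with a window a DR5 was found in Rarb, from 53 to 37 bases before the start on the gene's own strand, and in Cyp26a1, from 32 to 16 bases before the start on the opposite strand. The Stra8 window held AGGTCA from 194 to 189 and from 38 to 33 bases before the start, and single hexamers of the 4 kinds, which also make up each repeat, were found in 43.7% of all windows. The same hexamers with 1 or 2 bases between them, present in 0.222% and 0.268% of all windows, were found in 0 of the 14. CAGATG, an E-box of the kind that neurogenins bind, and CAGCTG, another E-box, were found in 17.2% and 16.3% of all windows. CAGATG was in 1 window each of Rara and Rarg, and CAGCTG was in 1 window of Rara, and the CAGATG of Rara overlaps a single hexamer. The windows of Rec8, Crabp1 and Dhrs3 held none of these motifs, and a match describes the letters only.

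**Figure D1:**
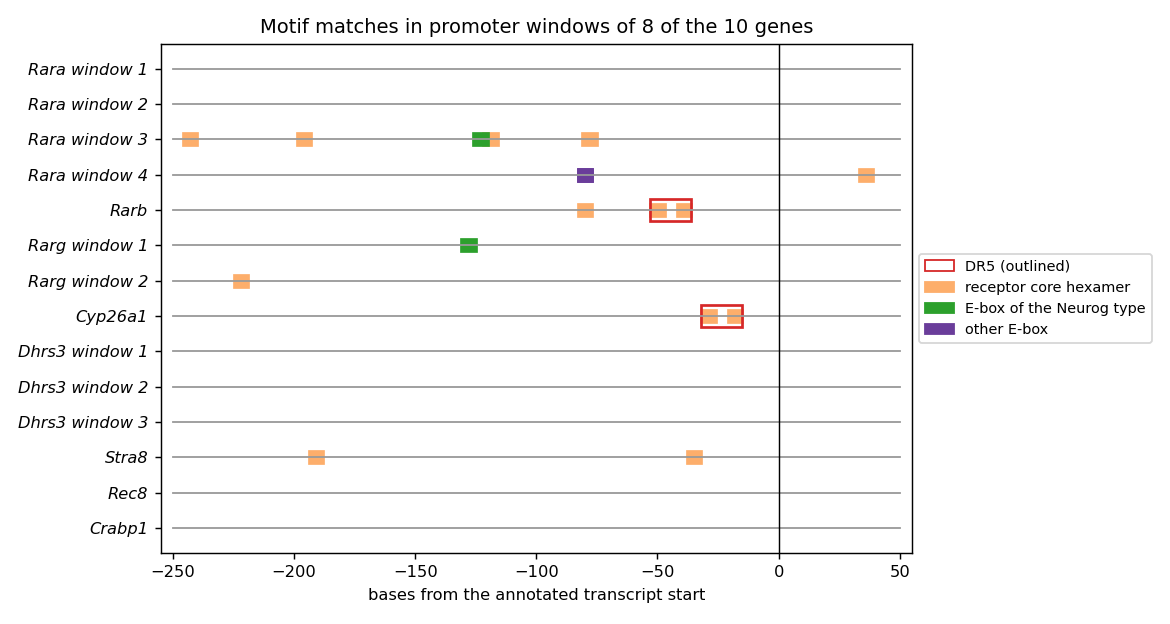
Motif matches in the 14 promoter windows of 8 of the 10 genes, one row per window, by distance in bases from the annotated start (x axis), with boxes coloured by motif and a DR5 outlined. The outlined boxes lie in the Rarb and Cyp26a1 windows, within 53 bases before the start.

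Rara, the receptor found in most tissues, had a signal of 82.0, 83.0 and 101 in uninduced replicates 1, 2 and 3. It was 191, 49.3 and 51.2 at 24 h, 37.6, 12.1 and 40.4 at 48 h and 27.1, 25.6 and 44.7 at 72 h. The 24 h arrays lay on both sides of the uninduced ones, and every array at 48 and 72 h lay below them. The difference from uninduced cells was -0.11 ± 0.41 at 24 h (limma adjusted p = 0.889), and Rara fell by 1.25 ± 0.41 at 48 h (adjusted p = 0.0312) and fell by 1.13 ± 0.41 at 72 h (adjusted p = 0.0410). The 48 h call was lost without replicate 2 at 48 h (-0.93, adjusted p = 0.138), without uninduced replicate 1, 2 or 3 (adjusted p of 0.0680, 0.0644 and 0.0912) and without the 4 arrays numbered 3 (0.106). The 72 h call was lost in 10 of 23 alternatives, with adjusted p up to 0.118, among them without replicate 1 (0.113) or 2 (0.118) at 72 h, without replicate 1 at 48 h (0.0513) and without uninduced replicate 1 (0.0802), 2 (0.0779) or 3 (0.110).

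Rarb, the receptor whose gene is itself a retinoic acid target, was near the bottom of the scale in uninduced cells at 15.0, 6.86 and 10.9 in replicates 1, 2 and 3. It read 164, 141 and 492 at 24 h, 82.3, 69.4 and 826 at 48 h, and 104, 88.0 and 1391 at 72 h. All 9 induced arrays lay above all 3 uninduced ones, and replicate 3 was the highest of its group at each induced time. Rarb rose by 2.84 ± 0.98 at 48 h (limma adjusted p = 0.0376) and by 3.28 ± 0.98 at 72 h (adjusted p = 0.0161). The difference at 24 h was 3.19 ± 0.98 (adjusted p = 0.0552), and it was called with the replicate number as a block (adjusted p = 0.00755) and without replicate 1 at 24 h (0.0326), replicate 3 at 48 h (0.0298) or replicate 3 at 72 h (0.0185). It was also called with a pseudocount of 1 (0.0240), with the 6 compared arrays alone (0.0110) and with array weights (0.0270). On the arrays numbered 1 and 2 alone Rarb was 2.66, 1.78 and 2.07 higher at 24, 48 and 72 h (adjusted p of 0.00345, 0.00300 and 0.00112). The 48 h call was lost without replicate 3 at 48 h (1.78, adjusted p = 0.163) and without uninduced replicate 1, 2 or 3 (adjusted p of 0.0807, 0.0954 and 0.0873), with a pseudocount of 64 (0.106) and with quantile normalization (0.0571), and the 72 h call without replicate 3 at 72 h (2.07, adjusted p = 0.0660).

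Rarg, the third receptor, read 533, 456 and 545 in uninduced replicates 1, 2 and 3. It was 916, 446 and 258 at 24 h, 129, 118 and 78.1 at 48 h, and 122, 103 and 53.7 at 72 h. The 24 h arrays spread around the uninduced ones, with replicate 1 above and replicate 3 below, and all 6 later arrays lay below every uninduced and 24 h array. The difference was -0.10 ± 0.40 at 24 h (limma adjusted p = 0.894). Rarg fell by 2.10 ± 0.40 at 48 h (adjusted p = 0.00129) and fell by 2.33 ± 0.40 at 72 h (adjusted p = 0.000464), and both calls held in each alternative run. A second probe set of Rarg differed by -0.33, -2.76 and -3.21 at 24, 48 and 72 h.

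**Figure D2:**
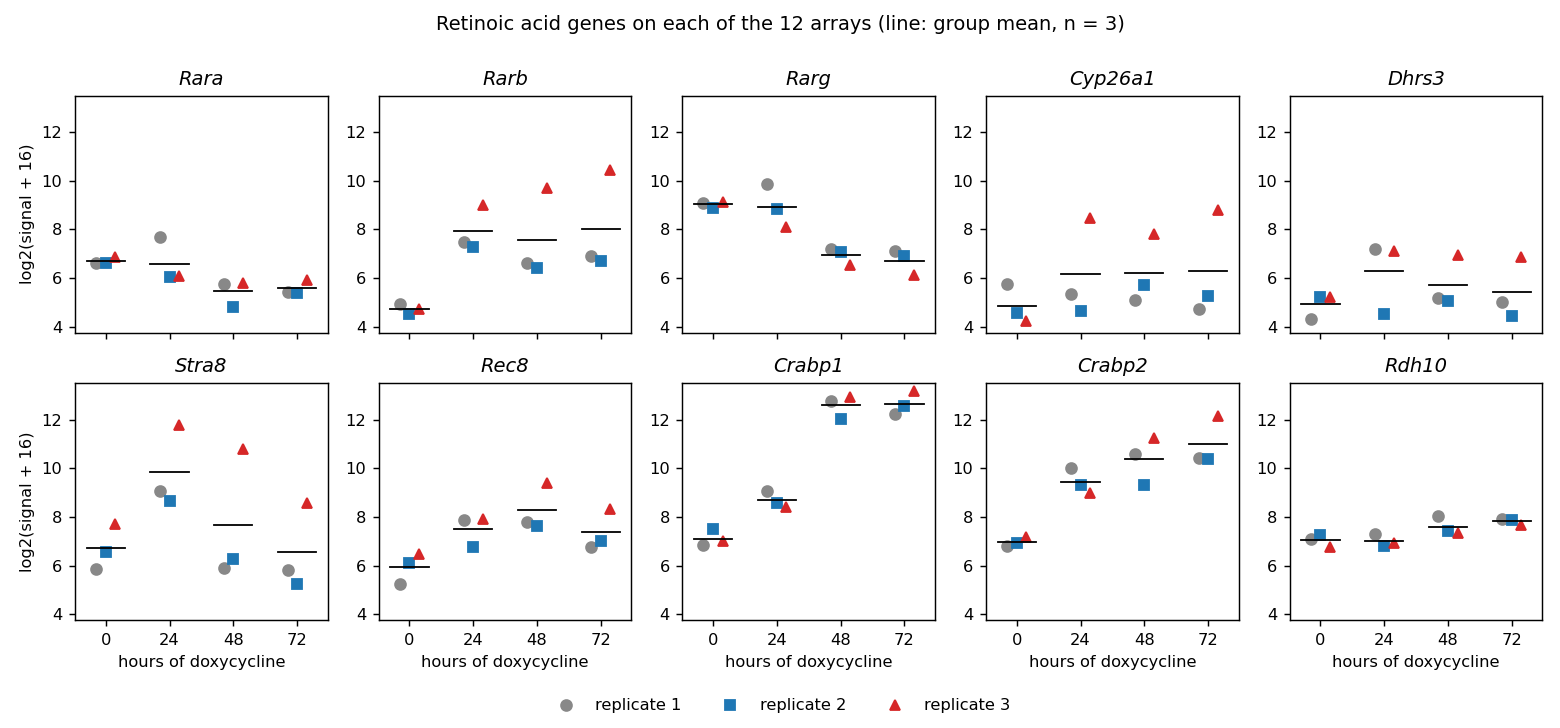
Value of each of the 10 genes on each of the 12 arrays, as log2(signal + 16) (y axis) against hours of doxycycline (x axis), with the replicate number shown by the marker and the group mean (n = 3) by a line. The mean of Crabp1 is 7.11 in uninduced cells and 12.59 at 48 h, that of Rarg is 9.04 and 6.93, and the replicate 3 marker stands apart from the others for Stra8, Cyp26a1 and Rarb.

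Crabp1, which binds retinoic acid in the cytoplasm and is a marker of developing neurons, had the largest rise of the 8 genes tested at 48 and 72 h, but not at 24 h. Its signal was 97.7, 164 and 114 in uninduced replicates 1, 2 and 3, 527, 366 and 325 at 24 h, 6963, 4214 and 7880 at 48 h, and 4768, 5945 and 9164 at 72 h. The groups stepped up without overlap from uninduced to 24 h and from 24 h to 48 h, and the 48 and 72 h arrays overlapped. Crabp1 rose by 1.58 ± 0.31 at 24 h (limma adjusted p = 0.00655), by 5.47 ± 0.31 at 48 h (adjusted p = 2.65e-07), about 44.4-fold on this scale, and by 5.53 ± 0.31 at 72 h (adjusted p = 1.41e-07). Without the 4 arrays numbered 3 the 24 h difference was 1.67 with an adjusted p of 0.0545.

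Crabp2, which hands retinoic acid to its nuclear receptors, read 97.0, 107 and 129 in uninduced replicates 1, 2 and 3. It read 1022, 621 and 487 at 24 h, 1537, 628 and 2410 at 48 h, and 1368, 1308 and 4578 at 72 h. Every induced array lay above every uninduced one, and the induced groups overlapped. Crabp2 rose by 2.45 ± 0.52 at 24 h (limma adjusted p = 0.00951), by 3.41 ± 0.52 at 48 h (adjusted p = 0.000303) and by 4.01 ± 0.52 at 72 h (adjusted p = 6.37e-05). These calls held in each alternative run.

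Rdh10, which oxidises retinol to retinal, read 122, 139 and 92.2 in uninduced replicates 1, 2 and 3, 142, 94.8 and 105 at 24 h, 246, 157 and 146 at 48 h, and 223, 222 and 189 at 72 h. The 24 h arrays overlapped the uninduced ones and the later arrays all lay above them. Rdh10 rose by 0.78 ± 0.25 at 72 h (limma adjusted p = 0.0232), and the differences at 24 and 48 h were -0.04 ± 0.25 (adjusted p = 0.930) and 0.56 ± 0.25 (adjusted p = 0.101). The 48 h difference was called with the mean of both probe sets (0.74, adjusted p = 0.0152), with array weights (0.0324) and without replicate 1 at 24 h (0.0330). A second probe set gave 0.07, 0.92 and 1.12. The 72 h call was lost without replicate 1 or 2 at 72 h (adjusted p of 0.0739 and 0.0743), without uninduced replicate 3 (0.0937), without the 4 arrays numbered 3 (0.138) and with quantile normalization (0.47, adjusted p = 0.169).

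Dhrs3, the reductase that turns retinal back into retinol, was low in uninduced cells, at 4.15, 21.8 and 21.7 in replicates 1, 2 and 3. It read 130.4, 7.08 and 124 at 24 h, 20.2, 17.6 and 107 at 48 h, and 16.4, 5.87 and 101 at 72 h. Replicate 3 was above 100 at each induced time, and of the other arrays only replicate 1 at 24 h was. Cyp26a1, the main enzyme that breaks down retinoic acid in embryos, read 38.3, 7.47 and 2.76 in uninduced replicates 1, 2 and 3, 25.2, 8.92 and 341 at 24 h, 18.3, 36.1 and 209 at 48 h, and 10.9, 22.7 and 435 at 72 h. Its signal stayed under 40 on all arrays numbered 1 and 2 and was above 200 on the 3 induced arrays numbered 3. Without the filter, over 18193 genes, the difference from uninduced cells at 24, 48 and 72 h was 1.31, 1.36 and 1.43 ± 1.11 for Cyp26a1 (limma adjusted p of 0.568, 0.444 and 0.392). It was 1.35, 0.79 and 0.51 ± 0.76 for Dhrs3 (adjusted p of 0.361, 0.526 and 0.685).

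Stra8, which retinoic acid switches on in germ cells before meiosis, read 42.1, 79.7 and 194 in uninduced replicates 1, 2 and 3. It read 519, 391 and 3531 at 24 h, 43.2, 61.6 and 1752 at 48 h, and 40.7, 22.0 and 365 at 72 h. On arrays numbered 1 and 2 the signal was high at 24 h and back among the uninduced values at 48 h, and on arrays numbered 3 it was higher than on the others at every time, uninduced cells included. The 24 h groups did not overlap, and the difference was 3.12 ± 1.24 (limma adjusted p = 0.131). With the replicate number as a block it was called (adjusted p = 0.00417), as it was on the arrays numbered 1 and 2 alone (2.65, adjusted p = 0.00931). The differences at 48 and 72 h were 0.93 ± 1.24 (adjusted p = 0.598) and -0.17 ± 1.24 (adjusted p = 0.925), and their signs turned with the arrays left out.

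Rec8, a cohesin subunit of meiotic chromosomes, read 22.4, 52.8 and 72.4 in uninduced replicates 1, 2 and 3, 222, 92.3 and 226 at 24 h, 206, 184 and 659.5 at 48 h, and 94.1, 112 and 307 at 72 h. Each induced array lay above all uninduced ones, and the induced groups overlapped. Rec8 rose by 2.34 ± 0.54 at 48 h (limma adjusted p = 0.00484) in each alternative run, and by 1.43 ± 0.54 at 72 h (adjusted p = 0.0479). The 72 h call was lost in 12 of 24 alternatives, among them without replicate 2 (adjusted p = 0.0639) or 3 (0.194) at 72 h, without replicate 1 (0.0563) or 2 (0.0509) at 48 h and without uninduced replicate 1 (0.181), 2 (0.0826) or 3 (0.0501). At 24 h the difference was 1.58 ± 0.54 (adjusted p = 0.0822), called with the replicate number as a block (0.0160). Of 16 other germ cell and meiosis markers, 0 were higher by 1 log2 or more on replicate 3 than on both other arrays at 24, 48 or 72 h. Over all 18193 genes that share was 0.374%, 0.412% and 0.775%. By any amount, replicate 3 was above both others for 12 of the 16 at 24 h, 11 at 48 h and 4 at 72 h, and below both for 2, 1 and 10. The share of all genes by any amount was not computed, and nothing is read from these counts. The summed signal of the 16 markers in replicates 1, 2 and 3 was 2304, 1769 and 2407 in uninduced cells, 618, 2266 and 3016 at 24 h, 1820, 2356 and 2819 at 48 h, and 1344, 1365 and 1126 at 72 h. It was thus highest on replicate 3 at 24 and 48 h and lowest there at 72 h, and the part of these markers in the Stra8 and Rec8 values was not tested.

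**Figure D3:**
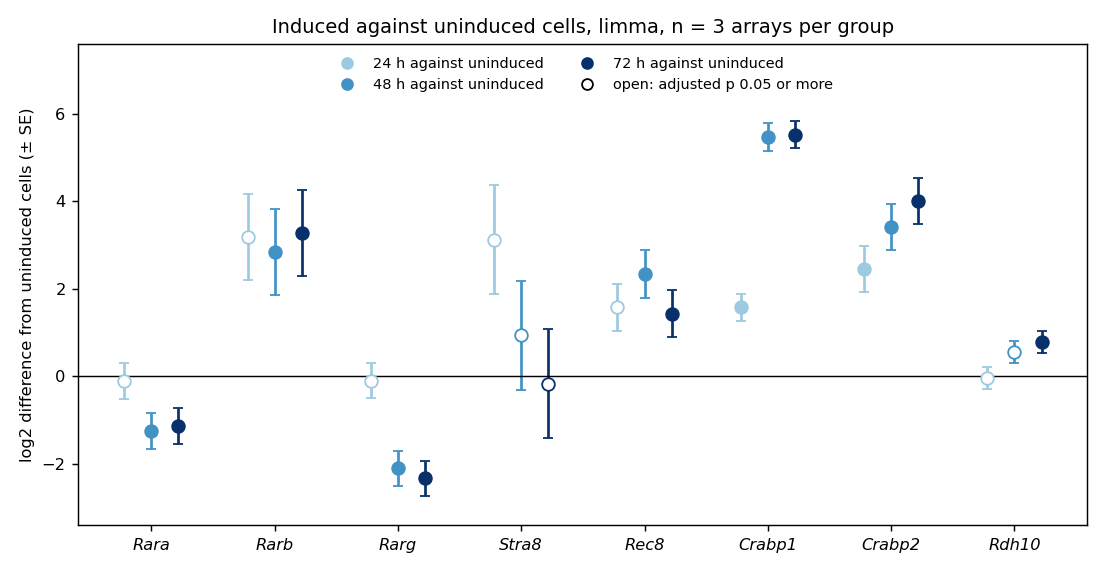
Difference from uninduced cells in log2(signal + 16) for the 8 genes tested at 24, 48 and 72 h, with bars of 1 standard error from limma (n = 3 arrays per group) and filled symbols for an adjusted p under 0.05. Crabp1 and Crabp2 lie above 0 at all 3 times, Rarg and Rara lie below 0 at 48 and 72 h, and Stra8 has the widest bars (1.24).

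Between consecutive times, Crabp1 rose by 3.90 ± 0.31 and Rarg fell by 2.00 ± 0.40 from 24 to 48 h (limma adjusted p of 2.56e-05 and 0.00413). These were 2 of 8 genes, against 17.8% of all genes tested, of which 10.3% were higher and 7.55% lower. Among all genes called there, 57.7% were higher, and 45.7% were with quantile normalization. Rara differed by -1.14 ± 0.41 without overlap (adjusted p = 0.0734), called without replicate 2 (0.0445) or 3 (0.0397) at 24 h. Rdh10 differed by 0.60 ± 0.25 (adjusted p = 0.117), called without replicate 1 at 24 h (0.0292) and with the mean of both probe sets (0.0308). Stra8 differed by -2.19 ± 1.24 (adjusted p = 0.236). It was called with the replicate number as a block (adjusted p = 0.0160), on the arrays numbered 1 and 2 alone (-2.78, adjusted p = 0.00422) and without replicate 3 at 48 h (-3.76, adjusted p = 0.0324). From 48 to 72 h limma called 0 of the 8 genes, and 0 had an unadjusted p under 0.05, where 0.796% of all genes were called, 0.644% higher and 0.152% lower. The differences ran from -1.10 for Stra8 to 0.60 for Crabp2, and Rec8 was called with array weights (-1.004, adjusted p = 0.0262).

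The arrays numbered 3 were set apart by some of these genes more than by others. The value of replicate 3 minus the mean of replicates 1 and 2, in log2(signal + 16), was 1.49, 2.93, 4.70 and 3.04 for Stra8 in uninduced, 24, 48 and 72 h cells. It was 0.01, 1.59, 3.20 and 3.65 for Rarb and -0.93, 3.48, 2.41 and 3.80 for Cyp26a1, so for these genes the gap was present in induced cells and not in uninduced ones. For Dhrs3 it was 0.45, 1.26, 1.82 and 2.14, and for Rec8 0.78, 0.59, 1.68 and 1.44. Crabp2 went from 0.30 and -0.69 to 1.28 and 1.76, and Crabp1 from -0.14 and -0.42 to 0.54 and 0.78. Rarg was lower on replicate 3 in induced cells, by -1.26, -0.57 and -0.88, after 0.14 in uninduced cells. Rara (0.25, -0.79, 0.54 and 0.52) and Rdh10 (-0.43, -0.13, -0.40 and -0.22) differed by less than 1 log2 at every time.

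Replicate 3 was above both other arrays by 1 log2 or more for 1, 3, 5 and 6 of the 10 genes in uninduced, 24, 48 and 72 h cells, and below both by as much for 0. Over all 18193 genes the share above was 1.39%, 0.374%, 0.412% and 0.775% in the same order, and the share below was 0.577%, 0.813%, 0.632% and 1.9%. The gap held at 24, 48 and 72 h for 8 of the 18193 genes (0.0440%), a listing made after the values were seen. These were Stra8, Cyp26a1 and Rarb, the homeobox genes Hoxb2, Hoxb3, Hoxb5 and Hoxc4, and Arg1, which encodes arginase. Hoxb5 read 18.0, 23.4 and 1141 in replicates 1, 2 and 3 at 72 h, after 1.62, 7.20 and 4.13 in uninduced cells. Hoxb2 read 211, 183 and 1127 at 72 h, and was already at 302, 271 and 728 at 48 h. Hoxb3 read 80.7, 76.3 and 509.8 and Hoxc4 20.3, 29.8 and 246 at 72 h.

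In the other direction 7 genes (0.0385%) were lower on replicate 3 by 1 log2 or more at all 3 induced times, namely Otx2, Tmc8, Nnat, Glod5, Castor1, Nckap5l and Asic1. Otx2, a homeobox gene of the anterior neural plate, read 969.9, 1147 and 401 at 24 h, 154, 177 and 48.2 at 48 h, and 172, 178 and 15.0 at 72 h. It was 660.2, 205 and 179 in uninduced cells, where replicate 1 was the one that stood apart. Endoderm markers moved with replicate 3 in part. Their summed signal over 10 genes was 532, 431 and 1502 in replicates 1, 2 and 3 at 72 h, 815, 476 and 888 at 48 h, 608, 277 and 439 at 24 h and 289 to 401 in uninduced cells. At 72 h 5 of the 10 were higher on replicate 3 by 1 log2 or more, with Sox17 at 45.1, 25.9 and 219. In uninduced, 24 and 48 h cells 2, 0 and 2 were. The share of all 18193 genes was 1.39%, 0.374%, 0.412% and 0.775% in uninduced, 24, 48 and 72 h cells. Foxa2 went the other way, lowest on replicate 3 at each induced time, with 83.3, 88.6 and 70.6 at 72 h. Afp and Apoa1 stayed below the array median on every array. Other marker lists moved at 72 h too. Replicate 3 was 1 log2 or more below both others for 3 of 8 feeder and fibroblast markers and 2 of 8 ES cell markers. Of all 18193 genes 1.9% were. It was above both by as much for 1 of 6 trophoblast markers. The part of these markers in the gap of the 10 genes was not tested.

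**Figure D4:**
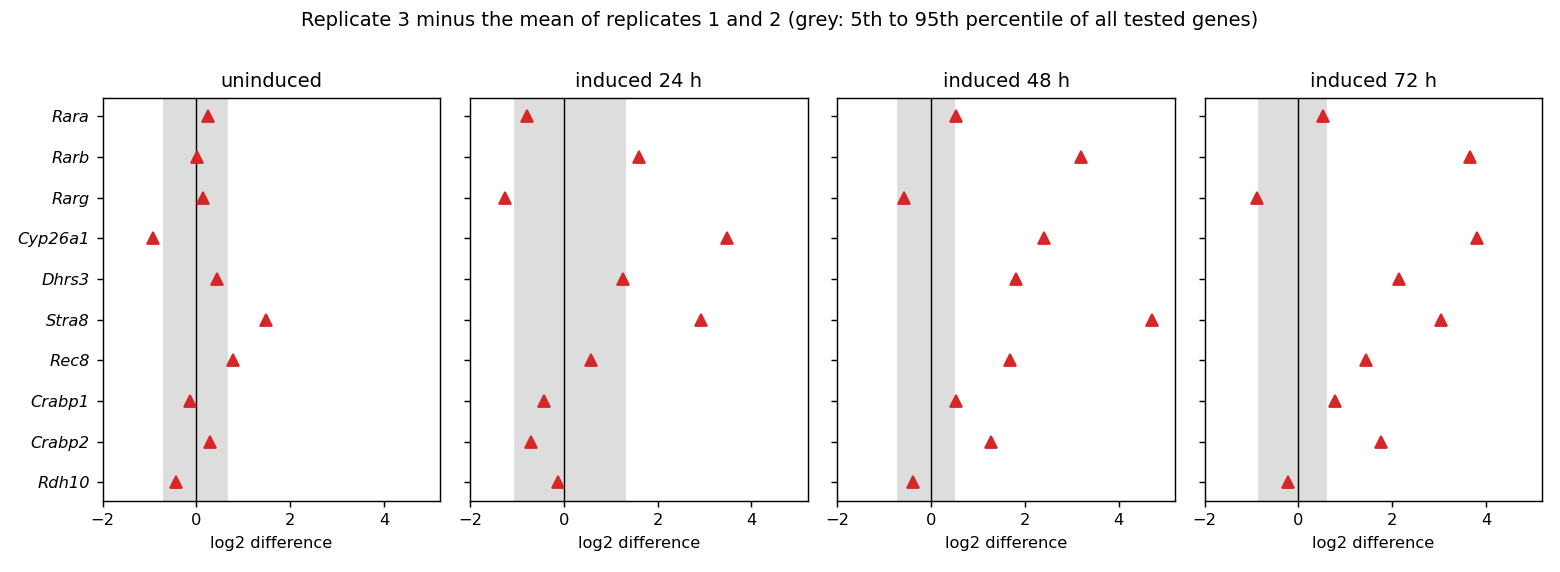
Replicate 3 minus the mean of replicates 1 and 2 in log2(signal + 16) for the 10 genes in each group, with the 5th to 95th percentile of all genes tested shaded. Stra8 lies above the shaded range in all 4 groups, and Rdh10 lies inside it in all 4.

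**Figure D5:**
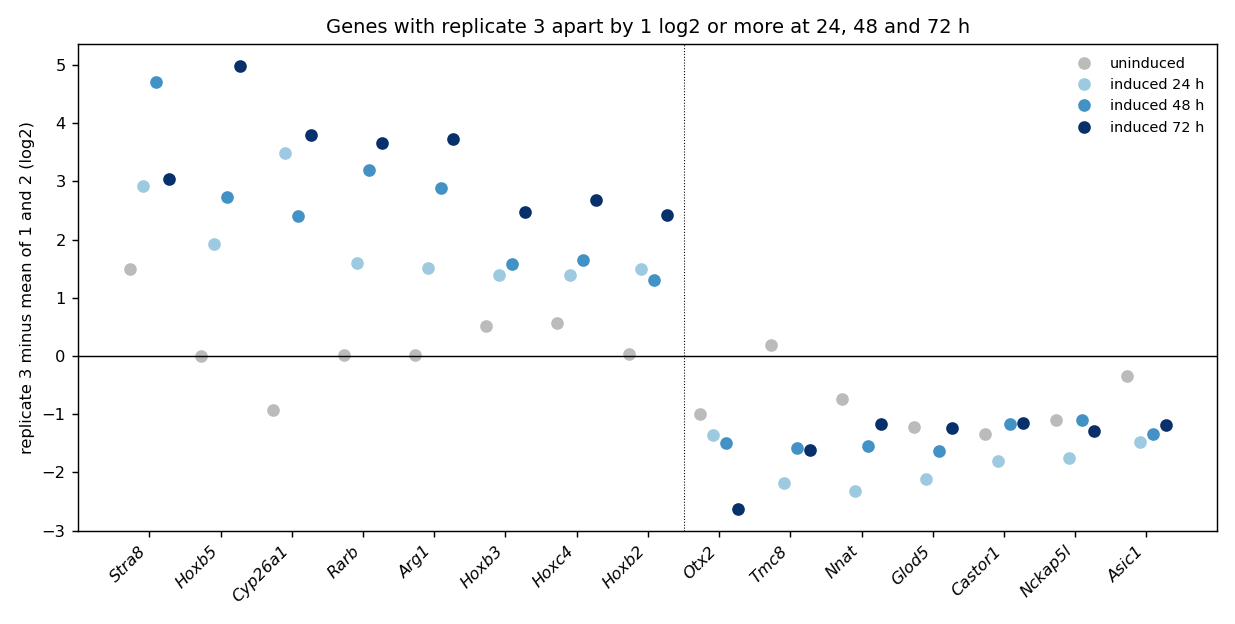
Replicate 3 minus the mean of replicates 1 and 2 in log2(signal + 16) (y axis) in each group, for the 8 genes (left of the dotted line) and 7 genes (right) whose replicate 3 lay 1 log2 or more above or below both other arrays at 24, 48 and 72 h. Hoxb3 is at 0.52 in uninduced cells and Hoxb5 at 4.98 at 72 h, and Otx2 is at -2.62 at 72 h.

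Other genes of the pathway, 80 in a list without the 10 above, had 69 members with a probe set and 47 that were tested. Of these 47, 18 passed the filter through the induced groups only, so the counts below are a description of the genes measured. Stra6, Aldh1a2, Cyp26b1, Nr2f1, Nr2f2, Meis2, Hoxb2, Ret, Tshz1 and Bhlhe40, all named below, were among the 18. Their differences and calls carry the same limit. At 24 h 8 rose and 2 fell, where 8.12% and 3.18% of all genes tested did. At 48 h 23 rose and 5 fell, against 22.6% and 14.0%, and at 72 h 22 rose and 7 fell, against 25.3% and 18.6%. Of 17 genes known to respond to retinoic acid that were tested, 14 passed the filter through the induced groups only and were thus admitted by their induced values. In that list 6, 13 and 11 rose at 24, 48 and 72 h and 0, 1 and 2 fell, against the same shares of all genes, and nothing is read from its rising count. At 24 h 1 of the 17 was lower at an unadjusted p under 0.05. Meis2, a homeobox partner of Hox proteins, rose by 3.27 ± 0.24 at 24 h (limma adjusted p = 1.4e-05) and by 5.31 at 72 h. Hoxb2 rose by 2.80 ± 0.63 at 24 h (adjusted p = 0.0131), and Ret, a receptor for GDNF family ligands, rose by 4.41 and 5.83 at 48 and 72 h. Bhlhe40, a repressor of the circadian clock, fell by 1.65 at 48 h, and Rarres2, which encodes chemerin, fell by 1.17 at 72 h.

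For each group of pathway genes below, the shares of all genes tested to set beside the counts are 8.12% rising and 3.18% falling at 24 h, 22.6% and 14.0% at 48 h, and 25.3% and 18.6% at 72 h. Among carriers, 1 of 4 tested rose at 24 h, and 2 rose and 1 fell at 48 and at 72 h. Stra6, the membrane receptor for retinol-binding protein, rose by 2.31 ± 0.29 at 24 h and by 2.14 and 1.59 at 48 and 72 h (limma adjusted p of 0.000366, 0.000126 and 0.000804). Fabp5, a fatty-acid carrier that also binds retinoic acid, rose by 1.48 and 1.75 at 48 and 72 h, and Rbp7 fell, with differences of -1.22 and -1.56. Of 7 genes of synthesis and storage tested, 1, 1 and 2 rose at 24, 48 and 72 h and 1 fell at each time, near those shares at 48 and 72 h. Aldh1a2, which makes retinoic acid from retinal, rose by 1.71 ± 0.48 at 24 h (adjusted p = 0.0388) and fell by 1.60 ± 0.48 from 24 to 48 h (adjusted p = 0.0376). Rdh11 rose by 0.88 and 0.99 at 48 and 72 h and Rdh14 by 1.05 at 72 h, and Adh5 fell, with differences of -0.70, -0.98 and -1.09 at 24, 48 and 72 h.

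Of the 2 breakdown genes tested, Cyp26b1 rose by 1.66 ± 0.54 at 48 h and by 1.73 at 72 h (limma adjusted p of 0.0283 and 0.0198), and Cyp2s1 fell, with differences of -1.93, -2.35 and -2.05 at 24, 48 and 72 h. Receptor partners and orphan receptors had 1, 4 and 4 of 9 rising at 24, 48 and 72 h, where 8.12%, 22.6% and 25.3% of all genes rose. By limma 0 of the 9 fell, and 0 were lower at an unadjusted p under 0.05, where 3.18%, 14.0% and 18.6% of all genes fell. Nr2f1, an orphan receptor that competes for retinoic acid response elements, rose by 4.13 and 5.30 at 48 and 72 h. Nr6a1, which silences pluripotency genes as ES cells differentiate, rose by 2.28, 2.45 and 2.43 at 24, 48 and 72 h. Among coregulators limma called 0 of 9 at 24 h, with 0 at an unadjusted p under 0.05, while 3 rose and 1 fell at 48 h and 3 rose and 2 fell at 72 h, where 36.6% and 43.9% of all genes were called in either direction. The coactivator Ncoa2 rose by 1.59 and 2.07 and the ligand-dependent corepressor Nrip1 by 1.84 and 2.19 at 48 and 72 h, and Ncoa3 fell, with differences of -1.15 and -0.94. Kat2b, an acetyltransferase, fell by 1.40 at 72 h.

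From 24 to 48 h 9 of the 47 rose and 3 fell, against 10.3% and 7.55% of all genes, with Nr2f1 (3.83), Nr2f2 (1.95), Ret (3.68), Tshz1 (2.25), Ncoa2 (1.20) and Fabp5 (1.19) among those rising. Bhlhe40 and Ncoa3 fell, with differences of -1.54 and -0.83. From 48 to 72 h limma called 0 of the 47, where 0.796% of all genes were called. At an unadjusted p under 0.05, 2 of the 47 were higher and 2 lower, and the share of all genes there was not computed. Of the 22 genes known to respond to retinoic acid that had a probe set, replicate 3 was above both other arrays by 1 log2 or more for 0, 5, 8 and 6 in uninduced, 24, 48 and 72 h cells, where 1.39%, 0.374%, 0.412% and 0.775% of all 18193 genes were. It was below both by as much for 1, 0, 2 and 2, where 0.577%, 0.813%, 0.632% and 1.9% were.

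The genes whose course over the 12 arrays lay nearest to a member, by the mean absolute log2 distance after subtracting each gene's uninduced mean, were Hox genes for Rarb. Hoxb4 lay at 0.59 and Hoxb2 at 0.73 from Rarb, followed by Gfra3, a GDNF family coreceptor, at 0.81. For Rec8 they were Vwa2 at 0.29, Hoxb1 at 0.33 and Tgfbr3 at 0.39. Rarg lay nearest to Bcat2 at 0.20, Hsf2bp at 0.26 and Sox15 at 0.27. Crabp1 lay nearest to Rtn1 at 0.40, Scg3 at 0.41 and Ptn at 0.44, and Crabp2 to Rasl11b at 0.47, Zfp703 at 0.51 and Gpsm1 at 0.53.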

How the data were processed

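The values are signal intensities of 45101 probe sets on 12 Affymetrix arrays, deposited by the authors on a linear scale. The submitters' processing notes name MAS5 as the tool. The mean after trimming 2% at each end was 150 on every array. Such scaling sets every array to the same mean, so a change in total RNA content is not visible in these intensities. Genes with unchanged RNA per cell would then shift together in the opposite direction. Depth is not defined for arrays, and the 3 arrays per group limit the precision.

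Of the probe sets, 34945 had 1 gene symbol, 932 several and 9160 none. All arrays held different values (0 identical pairs). The labels call the replicates biological without naming their cultures, so p-values measure the spread between these samples. Values were used as log2(signal + 16). A gene was tested if its brightest probe set exceeded its array's median on all 3 arrays of a group (11806 of 18193 genes). One model over the 4 groups was fitted with limma 3.58.1 in R 4.3.3, with an intensity trend. It was also run on simulated data with independent noise. Those data lacked the likeness of same-numbered arrays, so that run cannot vouch for the fit on these arrays.

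The 10 genes and all lists were chosen with earlier results of these data known. All 10 are named, with, per pathway sublist, up to 2 largest rises and falls called without overlap, and the 3 nearest courses of each gene called at a log2 difference of 2 or more. Hoxb3, Hoxb5, Hoxc4, Arg1, Otx2 and the others that set replicate 3 apart were named after their values were seen. The numbers in the titles do not say what they share. The deviations of same-numbered arrays from their group means correlated by 0.0787 to 0.577, over 0.1 in every pair except one of 72 h against uninduced, and each of the 12 arrays resembled its own number most. The main fit held no term for the replicate number and so ignored this likeness. A fit with the number as a block was run as an alternative in every comparison. Its value stands beside a result where it changed the call. The other alternatives were pseudocounts of 1 and 64, other filters, quantile normalization, the mean of all probe sets, the compared arrays alone, array weights, no trend and arrays left out. Promoters came from RefSeq (GRCm38.p6). Protein sequences were not analysed here.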

Additional observations from a re-analysis of the deposited data

How the results depend on the processing

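Over 40 results of single genes and 24 alternatives, 955 values were computed, of which 865 kept direction and side of the threshold, 40 lost the call, 22 gained one and 28 turned sign. Of the 17 called results 0 turned sign, and 14 of the 40 kept direction and side of the threshold in every alternative. The cause of each change below was not tested. With the replicate number as a block 5 of the 8 genes were called at 24 h, and from 24 to 48 h Stra8 was gained; the block changed no other call of the 8 genes. Without the 4 arrays numbered 3, where fewer samples entered, 4 of the 8 were called at 72 h. Leaving out 1 array gave 4 to 7 there, and array weights gave 1 from 48 to 72 h. Genes called at 24 h numbered 365 with the 6 compared arrays alone, 436 without the arrays numbered 3 and 701 to 2961 with 1 array left out, beside 1335. At 48 h they were 6486, 2716 and 3213 to 6717, and 6956 with array weights, beside 4316. At 72 h array weights gave 8108, and leaving out 1 array 4064 to 7358, beside 5180. From 24 to 48 h they were 1030 with the arrays alone, 1268 without the arrays numbered 3 and 1195 to 3007 with 1 left out, beside 2104. From 48 to 72 h 94 became 19 and 239 with pseudocounts of 1 and 64, 51 with a filter at percentile 75, 159 with the mean of probe sets, 439 with the arrays alone, 2549 with array weights, 0 without the arrays numbered 3 and 27 to 485 with 1 left out. Signs turned without the arrays numbered 3 for Rara (0.24) and Rarg (0.37) at 24 h, Stra8 at 48 h (-0.14) and Crabp1 from 48 to 72 h (-0.025), with the mean of probe sets for Rdh10 at 24 h (0.017), and with array weights for Rarb from 48 to 72 h (-0.22). With 1 array left out the 24 h difference ran from -0.66 to 0.18 for Rara, from -0.56 to 0.32 for Rarg and from -0.19 to 0.071 for Rdh10. Stra8 ran from -0.64 to 1.81 at 48 h and from -1.18 to 0.48 at 72 h, and Rarb from -1.41 to 0.24 between 24 and 48 h. Between 48 and 72 h the ranges were -0.20 to 0.30 for Rara, -0.78 to 1.51 for Rarb, -0.43 to 0.063 for Rarg, -2.12 to 0.47 for Stra8 and -0.21 to 0.27 for Crabp1. A looser filter, met on any 3 arrays and chosen after seeing the data, tested 12629 genes. It changed no call of the 8 genes.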
